A study of Cicer arietinum with 32 samples.

Results

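Among 31 tissues/organs, without 20DAP seed, the 236 transcripts described here were highest in chickpea seed at 30 days after pollination (30DAP). They were low or at 0 in nearly all the others. They were 236 of 38818 transcripts in a full-length transcriptome assembly. They were chosen by their values: a tissue specificity index Tau of at least 0.9 over 31 tissues/organs, the highest FPKM in 30DAP, an FPKM of at least 0.5 there, and an FPKM below 0.5 in the nodule (Nod). FPKM is a read level corrected for transcript length and for the depth of the library. Tau was taken on log2(FPKM + 1) and runs from 0 for equal levels everywhere to 1 for expression in a single tissue. Since Tau used all 31 tissues/organs, every level in them is a description of the set and not a test of it. The 20DAP seed was not used to choose the transcripts, so some of them may be higher there. With 20DAP added after scaling, 190 of the 236 still met the rule. The 20DAP values were read as estimated counts, which grow with transcript length, so this number is approximate.

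All plants were Cicer arietinum genotype ICC4958, with no treatment or mutant, grown in a culture room, greenhouse or field. RNA-seq covered 32 tissues/organs, and each has 1 deposited value per transcript, the average of 3 biological replicates, or of 2 for 20DAP and 30DAP. For each replicate, material from different plants was pooled. The seed samples were whole seed in 4 stages named by days after pollination (5DAP, 10DAP, 20DAP and 30DAP), embryo (Emb), endosperm (Endo) and seed coat (SdCt), beside pod shell (PodSh) and the 5-day-old germinating seedling (GS). The vegetative samples were root (R), root tip (Rtip), root hair (RH), nodule, shoot (S), mature and young leaf (ML, YL), bracteole (Brac) and shoot apical meristem (SAM). Root and shoot came from 15-day-old seedlings and the meristem from 21-day-old ones. By the methods, root hairs came from seedlings grown in the dark. For root hair and root tip the sample list gives 5 and 21 days, and the methods give other ages. The floral samples were flower buds (FB1 to FB4), flowers (FL1 to FL5), calyx (Cal), corolla (Cor), androecium (And), gynoecium (Gyn) and pedicel (Pedi). The sources differ on the stage of embryo, endosperm, seed coat and pod shell: the methods place them at the 10DAP stage, and the sample list at late embryogenesis (cotyledon stage). Replicate values are not in the files used here, so no spread between replicates and no test can be given for any value.

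As background, a legume seed passes from cell division through a filling phase, in which the cotyledons of the embryo store protein, starch and oil, to maturation, in which the embryo prepares for drying and dormancy. Storage globulins of the cupin superfamily, late embryogenesis abundant (LEA) proteins, small heat shock proteins and oil body proteins are known products of the later phases. On germination the stores are broken down, and many maturation transcripts disappear.

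The sum of FPKM per tissue/organ ranged from 597153 in nodule to 959753 in endosperm and was 860148 in 30DAP. The 20DAP values summed to 29579443, and 22.2% of those above 0 were whole numbers, so they were read as estimated counts. They were compared by rank within 20DAP, and in places given as counts or as shares of the 20DAP sum. Some transcripts highest in nodule were also listed in 30DAP. Of 1020 transcripts with a Tau of at least 0.9 and their highest FPKM in nodule, 69 had an FPKM of at least 0.5 in 30DAP, and the 1020 made up 2.14% of the 30DAP sum but 0.0110% of the 20DAP sum. The share in 30DAP is of FPKM and the share in 20DAP is of counts, which are unlike measures. In 30DAP, 74.5% of their sum came from 2 of them. Ca_TC35359 had 8611 FPKM in 30DAP, 13861 in nodule, 12.1 or less elsewhere and a count of 0 in 20DAP. It was picked after its values were seen. Transcripts with their highest value in nodule are outside the set, since members are highest in 30DAP, and the nodule limit removed 15 more. For 5 members nodule was still the second-highest tissue/organ, below 0.5 FPKM, and all 5 had a count of 0 in 20DAP. Whether these reads came from nodule RNA or from the seed was not tested.

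The labelled tissue was checked against groups of transcripts formed by their descriptions in the study's tables, of which only part was used here. The 12 storage protein transcripts summed to 8727 FPKM in 30DAP, above the range of 3.45 to 536 in the other 30 tissues/organs. Most of this sum came from 3 members of the set, with 3951, 3104 and 1294 FPKM, and the next transcript had 362. Those 3 were chosen by their high 30DAP values, so the sum is no independent check of the label. The 66 photosynthesis transcripts summed to 226 FPKM in 30DAP and 3014 in mature leaf, with their highest sum, 37253, in nodule. The LEA group, as formed here, did not mark 30DAP: its 9 transcripts summed to 38.6 FPKM there and to between 8.31 and 120 elsewhere. It included Ca_TC01887, Ca_TC00114 and Ca_TC00274, described as LEA hydroxyproline-rich glycoproteins. Their Tau was 0.35, 0.33 and 0.41, so broadly expressed transcripts were in the group. Nothing about seed LEA proteins is read from its sum. The oil body group, formed by the words oleosin, caleosin or oil body, held only the caleosin-related Ca_TC33730, with 0.12 FPKM in 30DAP. The 63 heat shock transcripts summed to 2366 FPKM in 30DAP, and the HSP20-like chaperone Ca_TC19431 gave 2094 of it, with 257 in embryo and 47.5 in 10DAP. None of the transcripts in these LEA, heat shock and oil body groups was in the set. Members tied to oil bodies under other names, Ca_TC18135, Ca_TC18138 and Ca_TC00522, are given below. The described transcripts are a small share of the assembly, so unnamed members of these families may be among the rest.

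The set spanned more than 5 orders of magnitude in 30DAP seed. The lowest member had an FPKM of 0.50, the quartiles were 2.26, 19.6 and 476, and the highest had 161915. Over all transcripts the median FPKM in 30DAP was 0.29. There were 88 members at or above 100 FPKM and 46 at or above 1000, against 570 and 95 of all transcripts, while 105 members lay below 10 FPKM. Together the members held 46.0% of the sum of FPKM in 30DAP. In the other 30 tissues/organs they held at most 0.405%, which was in embryo. Each FPKM is a share of the library, so the other transcripts of 30DAP had to divide what these left.

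Most of this share came from few transcripts. Ca_TC02019, for which the tables used here give a protein-coding type but no description, alone made up 18.8% of the 30DAP sum. The 5 highest members made up 28.7%, the 20 highest 38.3% and the 100 highest 45.9%. Of the 20 transcripts with the highest FPKM in 30DAP, 14 were members.

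Ca_TC02019 had 161915 FPKM in 30DAP, and over the other 30 tissues/organs its lowest value was 0, its median 0 and its highest 180, in embryo. Endosperm had 5.20 and no other tissue/organ reached 0.5. Its count of 353357 in 20DAP was higher than that of 99.98% of all transcripts. It was thus high in 20DAP and 30DAP, present in embryo and not detected in 10DAP, where it was listed at 0.

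Ca_TC07493 followed with 33774 FPKM in 30DAP. Its other values ran from 0, with a median of 0.042, to 649 in embryo, which was the highest embryo value of the set. It is protein-coding and lies within the QTL qSW-3.2 on chromosome 3 in the study's list of candidates, which the study drew from transcripts it found tissue-specific in these same samples. Ca_TC10849, with 26990 FPKM, had a median of 0.492 and a highest value of 75.1, again in embryo. It was also among the highest members of 10DAP, with 3.31, and of seed coat, with 4.86. Ca_TC09267 had 14388 FPKM in 30DAP, a median of 0.152 elsewhere and 189 in embryo. In all of these the embryo was the next tissue/organ, at a level far below whole 30DAP seed.

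The remaining members of the 20 highest in 30DAP ranged from 3374 FPKM in Ca_TC01349 to 9477 in Ca_TC03806. In 18 of the 20 highest the embryo came second, with values from 8.57 in Ca_TC01348 to 649 in Ca_TC07493. The exceptions were Ca_TC09752 and Ca_TC11973, which came second in root hair, with 26.0 and 67.4 FPKM. Only 1 of the 20, the cupin Ca_TC26610, has a description in the tables used here.

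**Figure D1:**
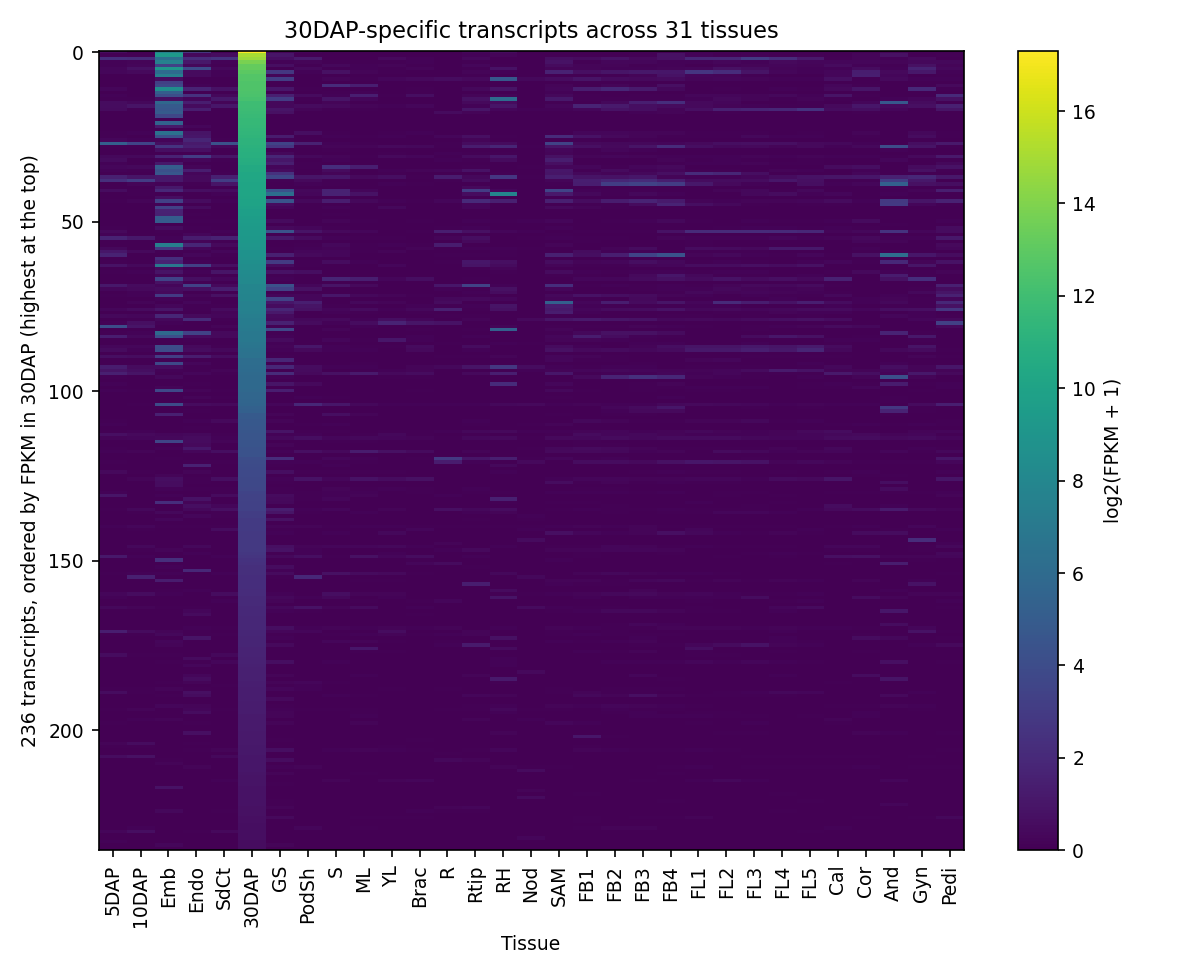
Heatmap of log2(FPKM + 1) for the 236 transcripts (rows, ordered by their 30DAP FPKM) in 31 tissues/organs (columns), where colour gives the level. The 30DAP column, which chose the transcripts, runs from 161915 FPKM at the top to 0.50 at the bottom, and embryo is the column with the most signal outside it.

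Reserve and seed proteins among the described members were led by cupins. The cupin superfamily holds the legumin- and vicilin-type storage globulins of seeds, beside enzymes and other proteins. Of the 12 storage group transcripts, 3 were members: Ca_TC26610 with 3951 FPKM in 30DAP, Ca_TC32070 with 3104 and Ca_TC37279 with 1294. In embryo they had 28.9, 41.7 and 24.5 FPKM, and in 10DAP 0.86, 0 and 0. All 3 were thus higher in the separate embryo than in whole 10DAP seed, and higher again in 30DAP. Their 20DAP counts were 154684, 154911 and 10010. A further cupin, Ca_TC33544, had 362 FPKM in 30DAP but a Tau of 0.86 and fell outside the set.

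Ca_TC26610 and Ca_TC37279 are in the study's QTL list, the first under qSW-8.1. Ca_TC32070 is listed among the transcripts that could not be aligned to the reference genome. Near-identical cupin copies may share reads, so the split between the 3 is uncertain.

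Members with roles in lipid and oil bodies included lipoxygenases, which add oxygen to polyunsaturated fatty acids. This group was formed after the values were seen: of 17 described lipoxygenases, 4 were members, beside 32 of all 3438 described transcripts. The 3 described as lipoxygenase 1 (Ca_TC33093, Ca_TC33860 and Ca_TC34000) are listed as not aligned to the genome and may share reads. Ca_TC33093 (lipoxygenase 1) had 871 FPKM in 30DAP and 2.18 in embryo. Ca_TC33860, Ca_TC34000 and Ca_TC01350 had 28.3, 6.82 and 3.72 FPKM and at most 0.013 in any other tissue/organ. The lipoxygenases outside the set were the main part of the group in germinating seedling, where all 17 summed to 220 FPKM.

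Hydroxysteroid dehydrogenase 1 is known in Arabidopsis as a protein of the oil body surface. Ca_TC18135, described by that name, had 1696 FPKM in 30DAP, 1.74 in germinating seedling and 1.16 in embryo, and Ca_TC18138 had 65.9 FPKM. Ca_TC00522, with a DUF1264 domain found in oil body-associated proteins of Arabidopsis, had 2001 FPKM and at most 0.657, in endosperm. That gave it the largest ratio of 30DAP to the next tissue/organ, 3046, among the 149 members whose next tissue/organ reached 0.5. The median of that ratio was 18.6. Ca_TC00522 lies at chromosome 1, 3612880 to 3614651, of the kabuli chickpea genome that the study used.

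Enzymes of carbohydrate metabolism included Ca_TC37169, described as beta-amylase 6. Beta-amylases release maltose from starch. It had 3130 FPKM in 30DAP and no more than 0.027 in any other tissue/organ, with 0 in embryo. Ca_TC34757 (rhamnose biosynthesis 1), whose Arabidopsis counterpart makes the activated sugar for rhamnose, had 1103 FPKM in 30DAP and 0.587 in embryo. The pair differed in 20DAP, where Ca_TC37169 had a count of 84.8 and Ca_TC34757 one of 78138.

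Of the 349 listed transcription factors, 1 was a member, beside 236 of all 38818 transcripts. Other members are described as regulators. Ca_TC00474, whose Pfam domain is named for the control of seed dormancy, had 21.6 FPKM in 30DAP and 10.99 in embryo, with at most 0.397 elsewhere. Ca_TC33145, subunit C3 of the CCAAT-binding nuclear factor Y, had 9.39 FPKM in 30DAP and 3.71 in embryo. Ca_TC23573, the listed transcription factor, a basic helix-loop-helix protein, had 6.16 FPKM in 30DAP and 0.813 in germinating seedling. The highest member of the respiration group was Ca_TC26344, a cytochrome c oxidase subunit, with 230 FPKM in 30DAP and 1.01 in pedicel.

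Other described members had low levels. The CBS domain protein Ca_TC01143 was an exception, with 968 FPKM in 30DAP and 9.31 in embryo. Ca_TC33173 (photosystem II subunit O-2) and Ca_TC32153 (catalase 2, which breaks down hydrogen peroxide) had 11.7 and 5.30 FPKM.

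Descriptions were available for 32 of the 236 members and for 3438 of all transcripts, in tables that are shortened. Of the 80 members with a listed type, 68 were protein-coding and 12 were lncRNAs, which are long transcripts with no evident coding frame. The 12 lncRNAs had a median of 3.62 FPKM in 30DAP and a highest value of 230, in Ca_TC17537. Ca_TC01465 followed with 223 FPKM. Both came second in germinating seedling, with 9.83 and 9.71 FPKM, and both are in the study's QTL list. Only 1 of the 12 lncRNAs reached 0.5 FPKM in embryo, and 4 had a count of 0 in 20DAP. Of all members, 13 were in the QTL list, which the study drew from tissue-specific transcripts. The share of all transcripts in that list was not counted. The study assigned most of its seed weight candidates to 20DAP, which the rule here left out. It named the members Ca_TC18138, Ca_TC18252 and Ca_TC37279 as specific to 20DAP, and Ca_TC18135 to 30DAP. Of the 236 members, 18 were listed as not aligned to the genome. Over all 38818 transcripts, 1998 were listed as not aligned. Those 18 held 1.31% of the set's 30DAP sum.

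At a threshold of 0.5 FPKM, embryo held the most members outside 30DAP. At 0.1 FPKM the order turned, with 48.7% of members in germinating seedling and 47.9% in embryo. An FPKM of at least 0.5 was reached by 72 of 236 members in embryo (30.5%, against 51.7% of all transcripts), by 52 in germinating seedling (22.0%, against 61.9%), by 36 in endosperm (15.3%, against 57.5%), by 19 in seed coat (8.05%, against 55.5%), by 22 in 5DAP (9.32%, against 60.2%) and by 15 in 10DAP (6.36%, against 59.1%). The limit of Tau forces low values elsewhere, so nothing is read from the gap to the background. Among the other tissues/organs the counts ran from 27 in shoot apical meristem (60% of all transcripts) to 4 in bracteole (56.4%), and nodule had 0 by the rule (47.7%).

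**Figure D2:**
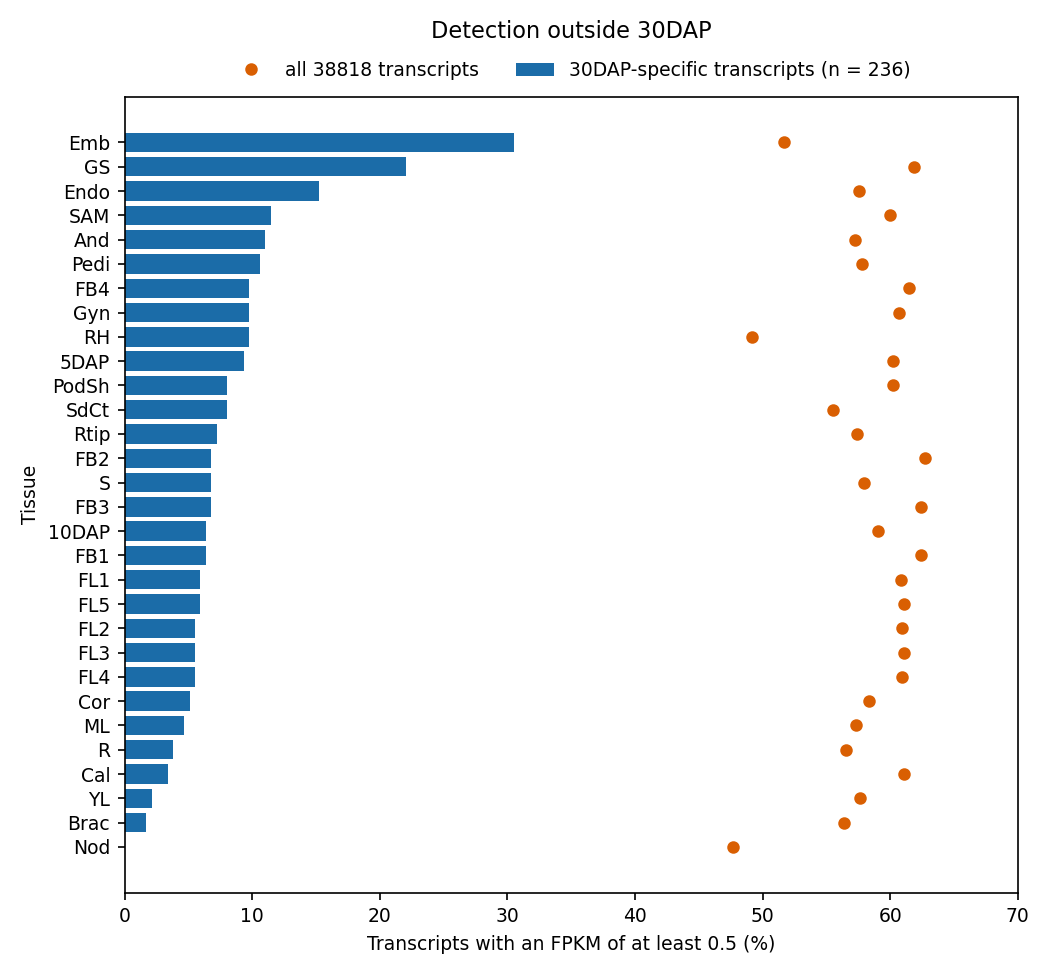
Percentage of transcripts that reached 0.5 FPKM in each tissue/organ other than 30DAP, for the 236 members (bars) and for all 38818 transcripts (points). Embryo is the longest bar at 30.5%, followed by germinating seedling at 22.0%.

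By summed level embryo was also first. Members summed to 3307 FPKM in embryo, 406 in root hair, 313 in germinating seedling, 232 in androecium, 118 in endosperm, 94.7 in 5DAP, 59.8 in seed coat and 43.9 in 10DAP. The root hair sum owed 227 FPKM to Ca_TC32473 alone.

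A log2(FPKM + 1) at least 2 higher in 30DAP was found for 155 members against embryo (2.77% of all transcripts), 163 against endosperm (3.18%), 163 against seed coat (1.89%), 162 against 10DAP (2.09%), 161 against 5DAP (1.84%) and 156 against germinating seedling (1.59%). The rule used these contrasts, so the counts only describe the set. The median difference was 3.36 on the log2 scale against embryo and 4.20 against 10DAP, and over all transcripts it was -0.08 and -0.43.

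The members detected in embryo had high levels in 30DAP. Their median FPKM in 30DAP was 1132, against 4.26 for the 164 members below 0.5 in embryo. Their median in embryo was 9.33 FPKM, and 30DAP exceeded embryo by a median of 110 times, with a range from 1.03 to 12715. Of the 72, 64 were higher in embryo than in both endosperm and seed coat. The same count was not made for all transcripts detected in embryo, so nothing about the set is read from it. The embryo sample and whole 30DAP seed differ in organ, and the sources differ on the embryo's stage, so stage and organ cannot be told apart. In such bulk samples a change in the cells present and a change in RNA per cell cannot be told apart either.

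Ca_TC07591 and Ca_TC15766 followed Ca_TC07493 in embryo, with 551 and 363 FPKM. In 30DAP they had 9439 and 5886 FPKM. In endosperm Ca_TC07591 was also the highest member, with 13.6 FPKM, followed by Ca_TC28182 with 9.46, which had 59.2 in embryo, and Ca_TC06999 with 9.19.

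Members detected in embryo were low in whole 10DAP seed. Of the 43 members with an embryo FPKM of at least 5, 40 were below 0.5 in 10DAP, and 23 (53.5%) were lower in 10DAP than in each of embryo, endosperm and seed coat. Over the 12833 transcripts with that embryo level, 237 (1.85%) were below 0.5 in 10DAP and 1666 (13.0%) below all 3 parts. Tau forces low 10DAP values on the members, so nothing about 10DAP seed is read from their counts. The sources differ on the stage of the parts, so stage and organ cannot be told apart here.

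The early seed and the seed coat shared their highest members. Ca_TC15454 was first in 5DAP, 10DAP and seed coat, with 37.1, 10.5 and 18.4 FPKM, and had 2292 in 30DAP. Ca_TC21543 had 4.00, 7.52 and 7.81 FPKM in the same samples and 1184 in 30DAP. Ca_TC02907 had 16.1 FPKM in 5DAP, 0.94 in 10DAP and 147 in 30DAP. Of the 22 members at 0.5 or above in 5DAP, 20 were lower in 10DAP. This was not counted over all transcripts, so nothing is read from it.

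**Figure D3:**
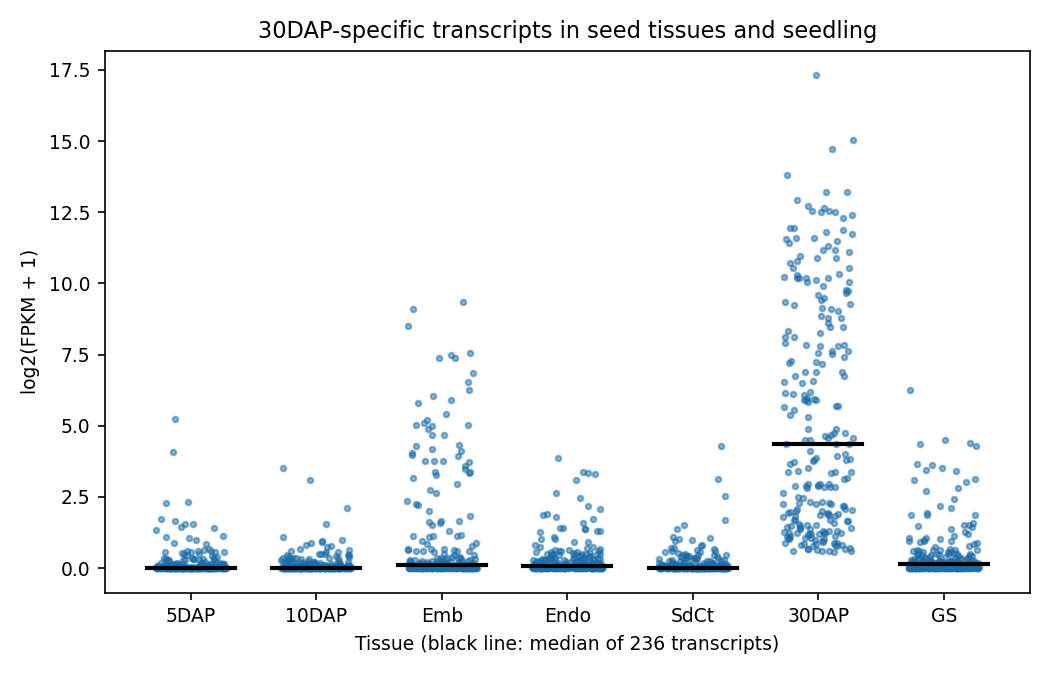
Level of each of the 236 transcripts (points) as log2(FPKM + 1) in the seed samples and germinating seedling, with the median as a black line. The medians are near 0 outside 30DAP, and embryo has the most points above 5 of the other 6 samples.

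Members detected in germinating seedling were partly others than those in embryo. Of the 52, 25 also reached 0.5 in embryo and 27 did not, and 137 members reached it in neither. Their median FPKM was 1.77 in germinating seedling and 356 in 30DAP, and 30DAP exceeded the seedling by a median of 66.2 times. The highest were Ca_TC32473 with 75.2 FPKM, Ca_TC22661 with 21.8 and Ca_TC14312 with 20.3, which had 1157, 1052 and 654 FPKM in 30DAP.

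Ca_TC32473 was higher still in root hair, with 227 FPKM, and had at most 2.11 in the remaining tissues/organs and 0 in embryo. Ca_TC31803, named here after its values were seen, had the same order, with 142 FPKM in 30DAP, 38.1 in root hair and 11.7 in germinating seedling.

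Some members came second in floral tissue. These were chosen after their values were seen, except Ca_TC23644. Ca_TC23644 had 443 FPKM in 30DAP, 71.8 in androecium, 19.9 in FB4 and 10.1 in FB3. Ca_TC20358 had 1177 FPKM in 30DAP and 38.5 in androecium, with 9.78 in FB3. In all, the second-highest tissue/organ was embryo for 65 members, germinating seedling for 32, endosperm for 23, androecium for 18, root hair for 13 and 5DAP for 10. Second places were not counted over all transcripts, so these numbers only describe the set.

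Not every member had a second tissue/organ of note. No other tissue/organ reached 0.5 FPKM for 87 members, exactly 1 did for 57, and 92 had more. Ca_TC08987 reached it in 20, the most of any member, with 11.4 FPKM in germinating seedling and 1255 in 30DAP. At FPKM 0 in all other 30 tissues/organs were 8 members, among them Ca_TC34000.

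By rank in 20DAP seed, which the rule did not use, the median of the members lay between those of 10DAP and 30DAP. The percentile used here is the percentage of the 38818 transcripts with a lower value in the same sample. It was higher in 20DAP than in 10DAP for 192 of 236 members (81.4%), against 41.9% of all transcripts. The rule used the 10DAP values and holds them near 0, so a 20DAP count above 0 mostly ranks higher, and nothing is read from that gap. The median percentile of the members was 20.0 in 5DAP, 0 in 10DAP, 52.7 in 20DAP and 92.5 in 30DAP. Since the rule set low values in 10DAP and the highest in 30DAP, a place between them was largely fixed by the choice. Estimated counts grow with transcript length and FPKM does not, so a rank in 20DAP also depends on length, which was not used here.

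The members spread widely in 20DAP. There, 60 members were among the highest 10% of transcripts and 33 among the highest 1%, while 42 (17.8%) had a count of 0, against 25.7% of all transcripts. The highest were Ca_TC07591 with a count of 1289037, Ca_TC09660 with 775798, Ca_TC09267 with 585822, Ca_TC11203 with 420720 and Ca_TC02019 with 353357. Members made up 10 of the 20 highest transcripts of 20DAP and 17.3% of its total count. By these unlike measures the order of the members differed: Ca_TC09660 was the second of them by count in 20DAP and the 11th by FPKM in 30DAP. Counts grow with transcript length, so this is not read as a change between the stages.

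Within each range of 30DAP level, members that embryo also held had the higher median rank in 20DAP. Among those at 100 FPKM or more in 30DAP, the median 20DAP percentile was 99.2 for the 58 at 0.5 or above in embryo and 61.8 for the 30 below it. From 10 to 100 FPKM it was 87.3 for 10 members and 46.4 for 33, and below 10 FPKM 58.6 for 4 and 30.0 for 101. The 2 groups overlapped at 100 FPKM or more, where the percentiles ran from 52.5 to 99.99 with embryo and from 42.6 to 99.94 without. The members with embryo were also higher in 30DAP, with a median 30DAP percentile of 99.8 against 99.6 in this range. It was 97.0 against 93.9 from 10 to 100 FPKM and 76.2 against 66.3 below 10. Embryo expression and 30DAP level thus cannot be told apart here. Across the 236 members, Spearman's rho with the 20DAP count was 0.80 for the embryo FPKM, 0.78 for the 30DAP FPKM and 0.28 for the seedling FPKM. Over all transcripts it was 0.88 for the 30DAP FPKM, so the value of 0.78 is not particular to the set. Members are not independent of each other, and these are descriptions.

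**Figure D4:**
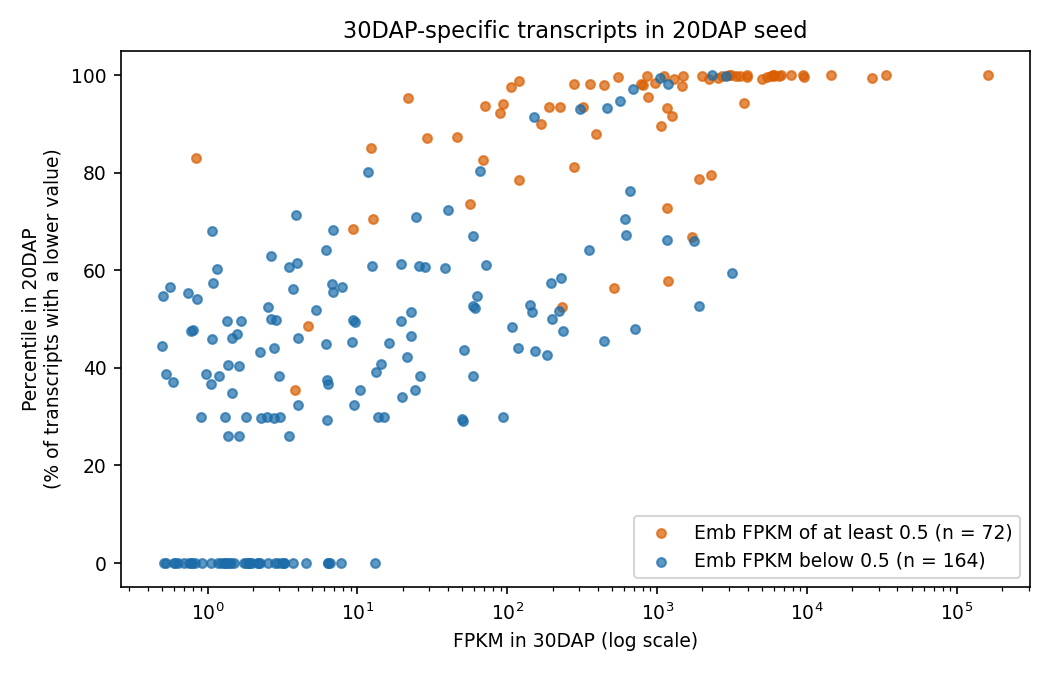
FPKM in 30DAP (log scale) against the percentile in 20DAP for the 236 transcripts, coloured by whether the embryo FPKM was at least 0.5. Members with embryo expression lie mostly at the top, with a median of 99.2 at 100 FPKM or more, and the row at percentile 0 holds the 42 members with a count of 0.

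A smaller number was high in 30DAP and below percentile 60 in 20DAP. Of the 88 members at 100 FPKM or more in 30DAP, 56 were in the highest 10% in 20DAP and 18 were below percentile 60. The same counts were not made for all 570 transcripts at that 30DAP level, so nothing about the set is read from them. Those 18 included the beta-amylase Ca_TC37169, at percentile 59.4 in 20DAP and 99.9 in 30DAP. Ca_TC19723 and Ca_TC03428, picked out after their values were seen, had 1907 and 709 FPKM in 30DAP and counts of 37 and 19 in 20DAP. Ca_TC23644 and the lncRNAs Ca_TC17537 and Ca_TC01465 were in this group too, with counts of 13, 36 and 32. The change in level between the stages cannot be sized, since 1 sample holds counts and the other FPKM.

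Sets were chosen by the same rule in embryo, endosperm, 5DAP and germinating seedling, but not in 10DAP, seed coat or pod shell. Of these, the embryo set was nearest to the 30DAP set by its median 20DAP percentile. The 79 embryo-specific transcripts had a median of 47.8, beside 52.7 for the 30DAP set. A count of 0 was found for 5 of them (6.33%), beside 17.8% of the 30DAP set. Of the embryo set, 91.1% ranked higher in 20DAP than in 10DAP, beside 81.4%. The median FPKM in the own tissue was unlike, 3.07 for the embryo set and 19.6 for the 30DAP set. The 1247 endosperm-specific, 550 5DAP-specific and 79 seedling-specific transcripts each had a median of 0, and 51.8%, 84.5% and 54.4% of them had a count of 0. The endosperm set held 15.9% of its tissue's sum of FPKM and the embryo set 1.54%, against 46.0% for the 30DAP set. With 1 averaged value per tissue/organ these differences have no test.

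Many members carried neighbouring identifiers. A member had another member directly before or after it in 52 of 236 cases (22.0%), against 1.19% of all transcripts. They formed 24 runs, of which 21 held 2 members, 2 held 3 and 1 held 4. Identifiers mostly follow the genome: where positions are listed, 91.4% of transcripts start at or after the one listed before. Neighbours may be loci side by side or overlapping isoforms that share reads, and positions were listed for only 11 members.

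The run of 4, Ca_TC01348 to Ca_TC01351, lies on chromosome 1 of the kabuli genome (v1.0). Ca_TC01348 spans 10514735 to 10518673 and Ca_TC01349 spans 10515209 to 10518673, so they overlap. Ca_TC01350, the described lipoxygenase, spans 10522899 to 10523660 inside Ca_TC01351, which spans 10519955 to 10524844. Their 30DAP values were 6016, 3374, 3.72 and 3009 FPKM. Since overlapping transcripts can share reads, the split within each pair is uncertain. Exons and UTRs were not analysed here.

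In other runs the levels were unequal. These pairs were picked after their values were seen, although some hold a member of the 20 highest. Ca_TC09266 and Ca_TC09267 had 2709 and 14388 FPKM in 30DAP, and Ca_TC07591 and Ca_TC07592 had 9439 and 70.8. Ca_TC26610, the cupin, had 3951 beside 462 in Ca_TC26611. Ca_TC24846, Ca_TC24847 and Ca_TC24848 had 6.35, 49.9 and 51.4 FPKM, 0 in embryo and counts of at most 9.76 in 20DAP.

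The edges of the set were as follows. By Tau, Ca_TC23644 (0.901), Ca_TC08987 (0.902) and Ca_TC22661 (0.903) were just inside, and Ca_TC12376 (0.8996), Ca_TC32179 (0.898) and Ca_TC31748 (0.897) just outside. By 30DAP level, Ca_TC29144 (0.50 FPKM), Ca_TC32321 (0.505) and Ca_TC36184 (0.51) were inside, and Ca_TC37919 (0.475), Ca_TC24453 (0.45) and Ca_TC36123 (0.45) outside. By nodule level, Ca_TC09165 (0.497 FPKM), Ca_TC38599 (0.443) and Ca_TC17906 (0.43) were inside, and Ca_TC34949 (0.56), Ca_TC36207 (0.593) and Ca_TC02753 (0.627) outside.

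The nodule limit removed 15 transcripts. The highest of them, Ca_TC29921, had 34756 FPKM in 30DAP, 4.04% of its sum, but 1.12 in nodule, 0 in embryo and a count of 10743 in 20DAP. Ca_TC31895, described as a glycine decarboxylase P-protein, had 1266 FPKM in 30DAP, 37.0 in nodule and a count of 5.83 in 20DAP. Both were named after their values were seen. They differ in 20DAP, where the first was high and the other near 0.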

How the data were processed

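RNA-seq libraries of 32 tissues/organs were filtered, aligned with bowtie2 to the study's assembly and quantified with RSEM by the authors, who averaged the replicates. The authors deposited the averages as FPKM for 31 tissues/organs. The deposited 20DAP values carry the same heading but were read as estimated counts, from their sum and their share of whole numbers. They were compared by rank, and shares of their sum and a scaled version are given as descriptions. Library depth is listed in a table of the study and was not used here. The files hold only averages, so no test, interval between replicates or detection limit was computed. Wilson 95% intervals of shares served only to judge alternatives.

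Tau was computed on log2(FPKM + 1) with Python 3.11.15 and pandas 2.3.3. The design took 20DAP ranks within the sample. The selection was tested on simulated data. Named transcripts were the 20 highest in 30DAP, the described, TF or QTL members (the 30 highest), the 3 highest in each seed sample and seedling, the 5 highest in 20DAP, those at each threshold, and the 4 highest of each annotation group. Members and lists were chosen with earlier results of these data known. Descriptions, types, positions and QTLs came from the study's tables, used in part. RefSeq gene records held 0 of the member identifiers and were not used. Sequences were not used here.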

Additional observations from a re-analysis of the deposited data

How the results depend on the processing

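Of 75 values under alternatives, 49 stayed within 1.5 times the count or inside the 95% interval of the share. The number of members, 236, fell to 140 with log2(FPKM + 0.1) and was 423 with quantile normalization, which shared 217 members with the set. With log2(FPKM + 0.1), the shares at 0.5 FPKM were 7.86% in endosperm, 1.43% in seed coat, 1.43% in 10DAP and 10.0% in germinating seedling, and 75.0% ranked higher in 20DAP than in 10DAP. With a Tau of at least 0.95 they were 4.27% in seed coat, 1.83% in 10DAP and 15.9% in seedling. Quantile normalization gave 9.46% in seedling and 71.4% ranking higher in 20DAP. An expression threshold of 0.1 gave 47.9% in embryo, 39.0% in endosperm, 25.0% in seed coat, 24.2% in 10DAP and 48.7% in seedling, which put seedling before embryo, and a threshold of 1 gave 10.2% in endosperm, 4.24% in seed coat, 2.12% in 10DAP and 14.8% in seedling. Members at 10 FPKM or more in 30DAP, an alternative chosen after seeing the data, gave 51.9% in embryo, 21.4% in endosperm, 13.0% in seed coat, 32.8% in seedling and 98.5% ranking higher in 20DAP. The causes were not tested.

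No paired analysis was possible because each tissue/organ has 1 averaged value. Leaving out a replicate was not possible for the same reason. Adding 20DAP as a further tissue after scaling left 190 members, all of the set. It mixes counts, which grow with transcript length, with FPKM. Without the 18 transcripts listed as not aligned, also chosen after seeing the data, 218 remained.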
